A study of Danio rerio with 8 samples.

Results

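A rule for transcripts more abundant in the lateral than in the animal ectoderm of the zebrafish gastrula selected 88 of the 57192 listed. Of those listed, 30739 had at least 1 estimated read over the 8 libraries together. A transcript was a member when its lowest value in the 4 lateral libraries exceeded its highest value in the 4 animal libraries. Its lateral mean also had to be at least 10 CPM (the estimated reads of a transcript scaled to a common library total) and at least 2 times its animal mean. The comparison of the regions therefore chose the members, and their excess in lateral ectoderm is described here and not tested. Of the 6496 transcripts with a lateral mean of at least 10 CPM, 1.35% met the whole rule, 2.54% were completely separated in this direction and 3.77% were at least 2-fold higher in lateral ectoderm.

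All embryos were WT and carried Tg(Sebox::eGFP), received PAmCherry1 mRNA (125 pg) by injection as 1-cell embryos. From 6 hours post fertilization, over about 90 minutes, a block of tissue of 444 by 220 by 58.5 µm was photoactivated at 405 nm, at the animal pole for the animal group and on the side of the embryo for the lateral group. Cells were then dissociated, and 5000 cells fluorescent for PAmCherry1, a red protein that light switches on, were sorted per library at 7.5 hours. The labels name no other gate, so any cell type inside the lit block could enter a library, and they do not say how many embryos or clutches gave each sample. In bulk RNA of this kind, fewer cells of a type and less RNA per cell cannot be told apart.

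The ectoderm is the outer germ layer and forms the epidermis and the nervous system. During gastrulation BMP ligands, secreted proteins most active on the ventral side, pattern it from back to belly, while the margin, the rim of the cell cap, sends Nodal, Fgf and Wnt signals into neighbouring cells. Lateral ectoderm lies nearer the margin than the animal pole does. The study asked which expression differences accompany the different material properties of these 2 ectoderm regions.

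Features are named by Ensembl transcript identifier, 0 of which matched the gene name tables at hand. Members are therefore given without gene names, roles or sequences, most of them by their annotated length in nucleotides (nt), which differs between all 88. For the same reason the ectoderm label was not checked against marker genes, and markers of other cell types were not read.

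Depth ran from 2439220 to 3807571 estimated reads in animal libraries and from 1720408 to 2810129 in lateral ones. A count of 0 in an animal library allows up to 0.788 to 1.23 CPM, a floor of 3 reads that covers counting error only. Lateral replicates 1 and 4 stood furthest from the rest. Their mean Pearson correlations with the other 7 libraries, across transcripts, were 0.858 and 0.867, against 0.876 to 0.894 for the other 6. With the other libraries of the same region, these means were 0.889 to 0.910 in animal ectoderm. In lateral replicates 1 to 4 they were 0.856, 0.886, 0.883 and 0.872. Lateral replicates 1, 2 and 3 thus correlated less with their own region than with all 7 others, at 0.858, 0.892 and 0.885. Lateral replicate 4 and every animal library correlated more with their own region. Folds of the members are also given over lateral replicates 2 and 3 alone.

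The members together were a small share of the RNA. They summed to 1319, 1686, 1369 and 1660 CPM in animal replicates 1 to 4, and to 6671, 4300, 5033 and 6783 CPM in lateral replicates 1 to 4. Among the lateral libraries, replicates 1 and 4 held the highest sums and replicate 2 the lowest. The 2 most abundant members made up 27.9% of the lateral sum, and the 10 most abundant 53.7%. Without those 2, the lateral sums ran from 3355 to 4802 CPM and the animal sums from 860 to 1238 CPM.

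**Figure D1:**
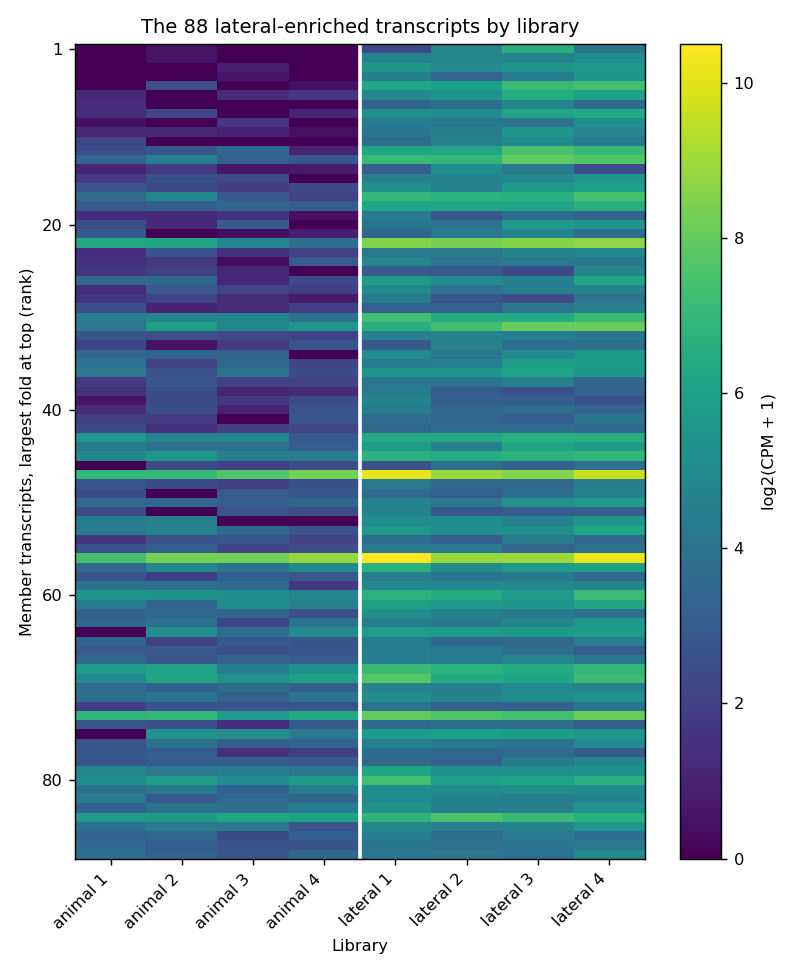
Level of each of the 88 members in each library, as log2(CPM + 1), with 1 row per member ordered by fold of lateral over animal mean, the largest at the top, and 1 column per library. The top rows are dark in all animal columns, and most rows below are graded, with a visible level in animal ectoderm as well.

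Most of the set was graded. By the reads found in animal ectoderm, 4 members were on/off, with at most 3 estimated reads over the 4 animal libraries, and 4 were near-off, with more reads but an animal mean under 1 CPM. The other 80 were graded, with an animal mean of at least 1 CPM and a median of 7.74 CPM. The on/off members had lateral means from 23.4 to 42.3 CPM, so none was among the 14 members above 100 CPM. The graded members reached from 10.2 to 899.8 CPM, with a median of 29.4 CPM.

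ENSDART00000051553.4, of 2948 nt, was the on/off member with the highest lateral mean. It stood at 0, 0, 0.808 and 0 CPM in animal replicates 1 to 4 and at 46.2, 30.2, 45.2 and 47.7 CPM in lateral replicates 1 to 4. Its 3 animal reads all came from replicate 3, and each lateral library lay at least 37.4 times above that value. The animal mean was 0.202 ± 0.404 CPM and the lateral mean 42.3 ± 8.11 CPM (SD, n = 4). As pooled reads over pooled depth, 372 lateral against 3 animal reads, the ratio was 175.5, with an exact 95% interval of 59.6 to 855 for counting error.

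The on/off member of 1274 nt was the most even. It stood at 25.4, 26.7, 25.5 and 33.1 CPM in lateral replicates 1 to 4 and had 1 animal read, in replicate 2, against 246 lateral reads. Its coefficient of variation over the lateral libraries (SD over mean) was 0.134. The on/off member of 1606 nt was the most uneven of all 88, at 4.16, 26.7, 93.7 and 17.4 CPM in lateral replicates 1 to 4, with a coefficient of variation of 1.12. It also had a single animal read, in replicate 2, and lateral replicate 3 alone carried most of its lateral signal. The on/off member of 2211 nt stood at 22.04, 9.61, 18.3 and 43.6 CPM in lateral replicates 1 to 4, with 2 animal reads, both in replicate 3. In these 4 transcripts the animal level is close to the limit of detection, while the lateral level varied over libraries from nearly even to widely spread.

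Near-off members had lateral means from 15.2 to 27.4 CPM. The near-off member of 2492 nt had reads in every animal library, at 1.31, 1.23, 1.08 and 0.356 CPM in replicates 1 to 4, and stood at 15.8, 21.7, 44.2 and 27.9 CPM in lateral replicates 1 to 4. The one of 3084 nt was found in animal replicate 1 only, at 1.58 CPM, and stood at 9.56, 13.9, 26.4 and 11.04 CPM in lateral replicates 1 to 4. Likewise the one of 954 nt was at 3.62 CPM in animal replicate 1 and 0 in the other animal libraries, and at 12.1, 23.4, 30.8 and 19.8 CPM in lateral replicates 1 to 4. The one of 1241 nt had animal values of 0.362, 0, 2.15 and 0 CPM and lateral values of 19.9, 17.5, 14.8 and 35.8 CPM. Lateral replicate 3 was the highest lateral library for 3 of these 4, and replicate 4 for the one of 1241 nt.

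**Figure D2:**
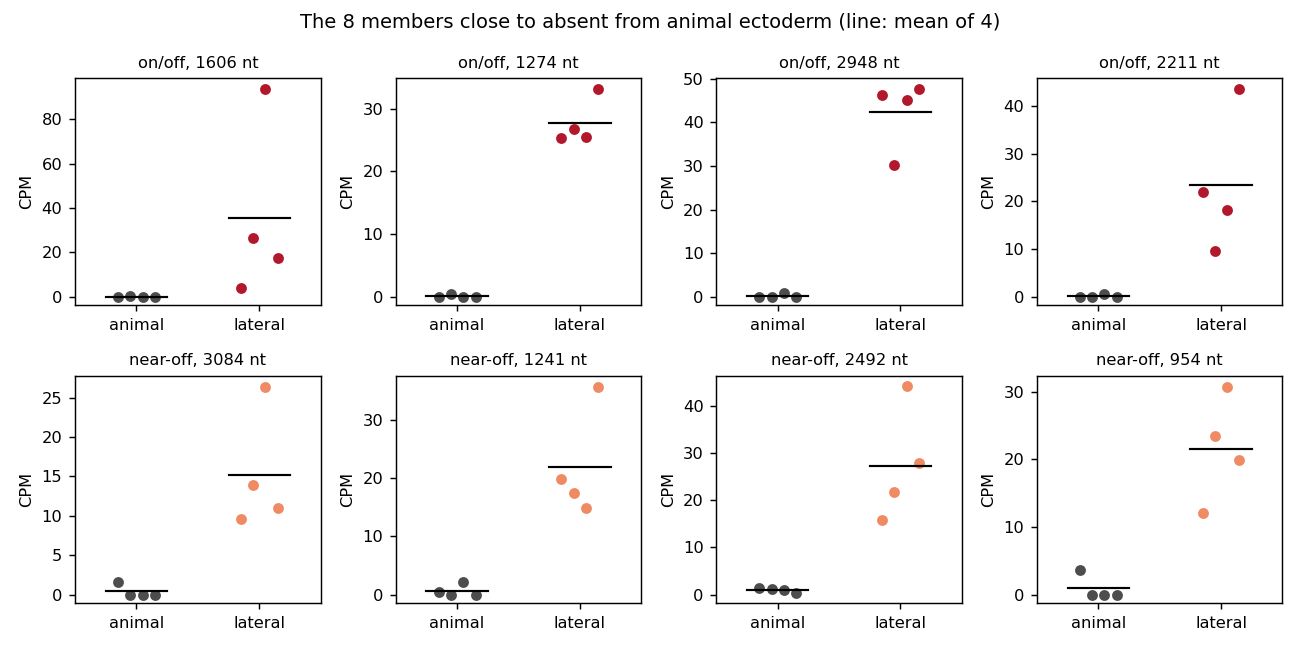
CPM in each library (points, 4 per region, in replicate order from left to right) and the mean of 4 (line) for the 4 on/off members in the upper row and the 4 near-off members in the lower row. Animal points lie at or near 0, and the lateral points of the on/off member of 1606 nt spread from 4.16 to 93.7 CPM while those of 1274 nt lie between 25.4 and 33.1 CPM.

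Folds among the 88 ran from 2.02 to 346, with a median of 3.62, and were concentrated at the low end. Of the members, 34 were from 2-fold to under 3-fold, 14 from 3-fold to under 4-fold, 19 from 4-fold to under 8-fold, 9 from 8-fold to under 16-fold and 12 at 16-fold or more. Those 12 are the 8 on/off and near-off members and 4 graded ones, of 1208, 1824, 4042 and 1895 nt, which are named here because their values were seen. The graded member of 1208 nt stood at 0, 4.51, 0 and 0.356 CPM in animal replicates 1 to 4 and at 74.0, 59.1, 135 and 170 CPM in lateral replicates 1 to 4. Its 12 animal reads kept it out of the on/off class by their number, and 11 of them were in replicate 2. The one of 1824 nt stood at 1.31, 0, 1.35 and 2.14 CPM in animal and 28.3, 42.7, 89.8 and 64.5 CPM in lateral replicates 1 to 4. For 4042 nt the animal values were 1.58, 3.28, 0 and 1.07 CPM and the lateral values 36.6, 33.8, 68.2 and 84.3 CPM. In the member of 1895 nt they were 4.73, 6.15, 10.5 and 1.07 CPM in animal and 76.5, 74.6, 181 and 138 CPM in lateral replicates 1 to 4. In all 4 the same lateral libraries, replicates 3 and 4, were the highest pair.

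The distance between the groups was narrow for many graded members. The lowest lateral value over the highest animal value had a median of 1.48 over all 88 and of 1.37 over the graded ones, and it was under 1.1 in 10 members. It was at least 2 in 28 members and at least 3 in 21. In the 34 members from 2-fold to under 3-fold, 5 had a ratio of at least 1.5, while all 21 members at 8-fold or more did.

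ENSDART00000075785.5, of 2387 nt, was the most abundant member and the graded one with the highest lateral mean. It stood at 170, 319, 309 and 462 CPM in animal replicates 1 to 4 and at 1446, 468, 487 and 1198 CPM in lateral replicates 1 to 4. Animal replicate 4 reached almost the level of lateral replicates 2 and 3, and only lateral replicates 1 and 4 were far above. The animal mean was 315 ± 119 CPM and the lateral mean 899.8 ± 498 CPM (SD, n = 4), a fold of 2.85. Over lateral replicates 2 and 3 alone the fold was 1.51, below the limit of 2. ENSDART00000075785.5 no longer met the rule with TMM or RLE scaling or on TPM, so its membership depends on the scaling.

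The next most abundant member, of 3141 nt and chosen after its values were seen, had the same shape. Its animal values were 124, 128, 201 and 319 CPM and its lateral values 1120, 478, 377 and 783 CPM in replicates 1 to 4. Again animal replicate 4 was the highest animal library, and lateral replicates 1 and 4 the highest lateral ones. Its fold was 3.57 over all lateral libraries and 2.22 over lateral replicates 2 and 3 alone. The authors' TPM is scaled by the effective length in each library, which is not the annotated length, so TPM ranks do not follow from CPM and annotated length. For the member of 3141 nt the mean TPM was 674 ± 225 in lateral against 216 ± 101 in animal ectoderm (SD, n = 4). This was the highest lateral TPM of the set. ENSDART00000075785.5 followed at 278 ± 131 TPM in lateral ectoderm. Of the 10 members highest in CPM and the 10 highest in TPM, 5 were the same.

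Some other abundant members had larger folds. The member of 2060 nt, ranked 3 in CPM and in TPM and chosen after its values were seen, stood at 80.1, 73.4, 27.5 and 12.8 CPM in animal and at 358, 323, 372 and 421 CPM in lateral replicates 1 to 4. Its animal libraries spread widely while its lateral libraries were nearly even, with a fold of the means of 7.61. The one of 1638 nt, also chosen after seeing its values, stood at 9.72, 21.3, 8.89 and 6.42 CPM in animal and 134, 122, 236 and 198 CPM in lateral replicates 1 to 4, a fold of 14.9. Its lowest lateral library was 5.71 times its highest animal one.

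At the other end, the graded member of 437 nt had the lowest lateral mean, 10.2 ± 6.10 CPM (SD, n = 4), against 2.25 ± 1.57 CPM in animal ectoderm. Its lateral values were 18.96, 7.32, 5.07 and 9.52 CPM in replicates 1 to 4, so replicate 1 carried much of the mean, and its lowest lateral library held 10.6 estimated reads. The smallest fold, 2.02, belonged to the member of 3045 nt, at 12.9, 9.43, 5.93 and 11.4 CPM in animal and 17.9, 16.7, 13.9 and 31.4 CPM in lateral replicates 1 to 4. The longest graded member, of 8821 nt, stood at 13.997 ± 6.86 CPM in lateral and 2.57 ± 1.80 CPM in animal ectoderm, and the shortest, of 187 nt, at 10.4 ± 4.01 and 2.88 ± 2.04 CPM (SD, n = 4). Over all members the lowest lateral library held between 8 and 1013 estimated reads, with a median of 43.5, and 21 members had a lateral library with under 20.

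Some transcripts missed the limits narrowly. Just outside the fold limit lay a transcript of 1610 nt with a fold of 1.97, against 2.02 just inside. Just outside the level limit, a transcript of 2424 nt had a lateral mean of 9.98 CPM, against 10.2 CPM just inside. At the separation limit, the member of 4801 nt had a lowest lateral value of 70.6 and a highest animal value of 70.1 CPM, whereas a transcript of 5043 nt just outside had 433 and 436 CPM. In all, 157 transcripts met the level and fold limits without being separated, and 77 were separated at that level with a smaller fold.

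**Figure D3:**
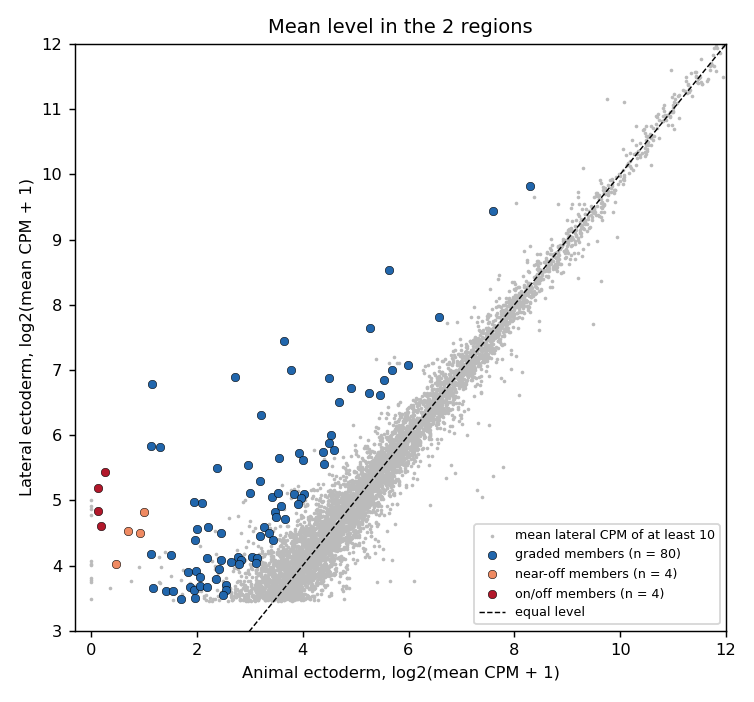
Mean level in animal ectoderm (horizontal) against lateral ectoderm (vertical), both as log2(mean CPM + 1), for the 6496 transcripts with a lateral mean of at least 10 CPM (grey) and the members by class (coloured). The dashed line marks equal level. On/off and near-off members lie at the left edge, and the 80 graded members lie above the dashed line from low to high levels. The grey points include 157 transcripts that were also at least 2-fold higher in lateral ectoderm but not separated.

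Because the rule used all 8 libraries, it was also applied to 3 animal and 3 lateral libraries at a time, and the transcripts so chosen were read in the 2 libraries left out. There are 16 such pairs, which share libraries and are not independent. The rule then chose 129 to 186 transcripts, of which 71 to 87 were among the 88. A median of 71.0% of the chosen transcripts, with a range of 60.8% to 75.4%, were higher in the left-out lateral than in the left-out animal library. Among all transcripts with a mean of at least 10 CPM in the 3 lateral libraries, the median was 48.1%, with a range of 43.8% to 52.5%. The lowest share among chosen transcripts was thus above the highest share among all.

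In the left-out libraries strong choices were higher, and at least 2-fold higher, more often than weak ones in every pair. The shares that were merely higher came closest for animal replicate 3 and lateral replicate 1, at 75.5% against 75.0%. Their ranges overlapped across pairs. Of the 50 to 65 transcripts chosen with a fold of at least 4, a median of 78.5% were higher in the left-out lateral library, with a range of 72.4% to 87.0%, and 68.2% were at least 2-fold higher. Of the 76 to 126 chosen with a smaller fold, 66.2% were higher, with a range of 52.4% to 75.0%, and 31.8% were at least 2-fold higher, although each had been at least 2-fold higher in the libraries that chose it. Among all transcripts at that level 8.31% were at least 2-fold higher. The weak choices fell to 52.4% higher for the pair of animal replicate 2 and lateral replicate 3, and to 16.3% at least 2-fold higher for animal replicate 2 and lateral replicate 2. The set of all transcripts was not matched to the chosen ones in level or in spread over libraries. Shares at least 2-fold lower were not read, so the part that spread alone plays in these shares was not tested. No test was made on these shares, since transcripts of one library are not replicates.

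**Figure D4:**
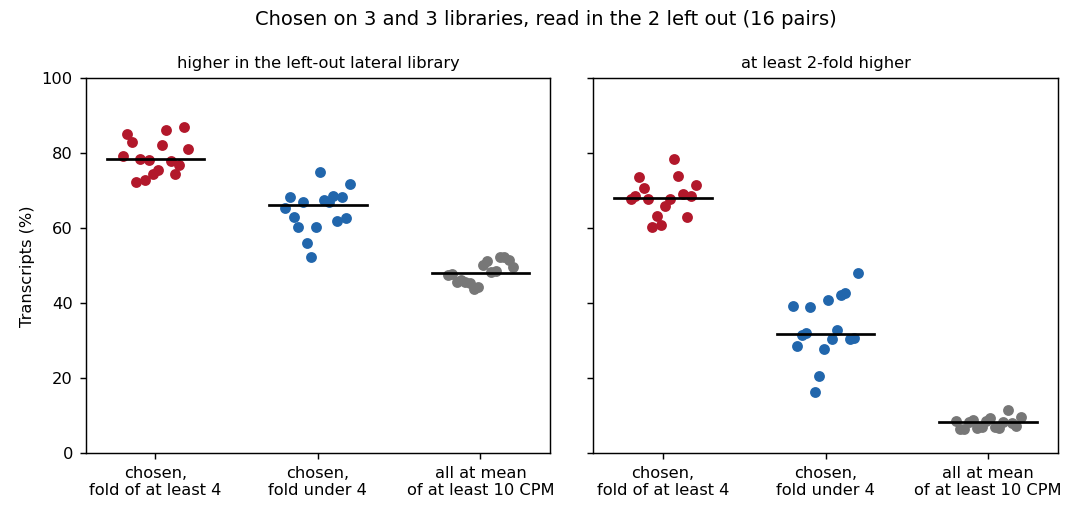
Percent of transcripts higher (left) and at least 2-fold higher (right) in the left-out lateral than in the left-out animal library, for transcripts chosen on the other 3 and 3 libraries with a fold of at least 4 (red) or a smaller fold (blue), and for all transcripts at a mean of at least 10 CPM in those lateral libraries (grey). Each point is 1 of 16 pairs of left-out libraries, and lines are medians. In the right panel red points lie between 60.3% and 78.4%, blue ones between 16.3% and 48.2% and grey ones between 6.44% and 11.5%.

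Members did not share a single profile over the lateral libraries. Lateral replicate 4, the shallowest library, was the highest for 37 of the 88, replicate 1 for 24, replicate 3 for 20 and replicate 2 for 7. Replicate 2 was the lowest for 35. Among all 6496 transcripts at a lateral mean of at least 10 CPM, replicate 4 was highest in 26.7% and replicate 2 in 22.4%, against 42.0% and 7.95% of the members. The median coefficient of variation over the lateral libraries was 0.357 for members and 0.265 for those 6496. These figures are partly set by the rule, which asks for a high lateral mean, and were not tested.

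Strong and weak members were alike in some of these patterns and unlike in others, and no test was made of either. Replicate 4 was the highest library in 42.5% of the members of 4-fold or more and in 41.7% of those under 4-fold, and replicate 2 the lowest in 37.5% and 41.7%. Among the 48 members under 4-fold, replicates 1 and 4 were the highest pair in 24, or 50.0%, and replicate 1 was the lowest library in 2. Among the 40 members of 4-fold or more, replicates 3 and 4 were the highest pair in 14, or 35.0%, replicates 1 and 4 in 11, and replicate 1 was the lowest library in 14. Over the 6496 transcripts each pair was highest in 14.3% to 19.4%. Replicates 1 and 4 had the lowest mean correlations with the other libraries, 0.858 and 0.867, where animal replicate 2 came next at 0.876. Replicate 4 was also the shallowest library. Over the other lateral libraries alone the weak members had a median fold of 2.29, and no link to these correlations was tested.

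**Figure D5:**
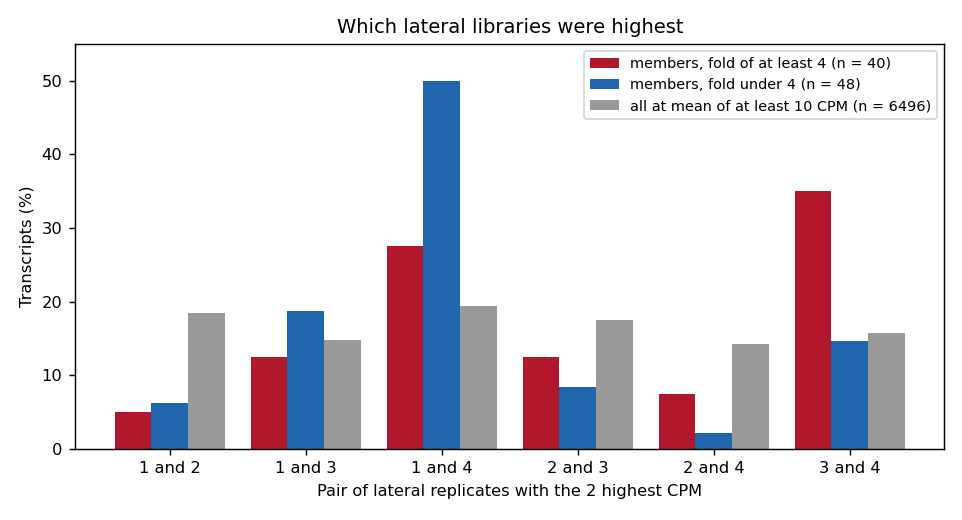
Percent of transcripts (vertical) for which each pair of lateral replicates (horizontal) held the highest values, for members of at least 4-fold (red, 40), members under 4-fold (blue, 48) and all 6496 transcripts at a lateral mean of at least 10 CPM (grey). The blue bar stands at 50.0% for replicates 1 and 4 and the red bar at 35.0% for replicates 3 and 4, while grey bars stay between 14.3% and 19.4%.

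Lateral replicates 2 and 3 were among the libraries that chose the members, so all 88 lay above every animal library in both by choice. Folds over them describe size only and do not check the excess. Measured over lateral replicates 2 and 3 alone, the median fold of the 88 was 3.00, and 70 were at least 2-fold higher than the animal mean. Over replicates 1 and 4 alone these values were 4.06 and 86. For the 40 strong members the medians were 7.85 over replicates 2 and 3 and 9.14 over replicates 1 and 4, and 33 of the 40 were at least 4-fold higher over replicates 2 and 3 alone. For the weak members the median over replicates 1 and 4 was 2.95. The rule applied without lateral replicates 1 and 4 gave 155 transcripts. Fewer libraries then had to be separated, and the lateral means and folds changed as well. Which of these let the added transcripts in was not tested. Of the 88 members, 64 were among the 155. The others missed the level or fold limit, since members could not lose their separation.

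In animal ectoderm, replicate 4 was counted as the lowest library for 33 of the 88 members, or 37.5%, and replicate 2 as the highest for 32, or 36.4%. Among the 6496 transcripts both shares were 31.3%. Among the 40 strong members replicate 4 was counted as the lowest in 21, or 52.5%, and among the 48 weak ones in 12. Where several animal libraries were tied at 0, the last in replicate order was counted as the lowest. This gave replicate 4 the 7 on/off or near-off members with a 0, all strong, and the weak member of 1950 nt. The shares for replicate 4 are thus partly set by that order, and they were not recounted without ties. In 22 members at least 1 animal library had no reads, 7 of them on/off or near-off. In 3 graded members, chosen after their values were seen, some animal libraries were at 0 while others exceeded 10 CPM. The one of 1950 nt stood at 19.5, 22.6, 0 and 0 CPM in animal replicates 1 to 4. The one of 3793 nt stood at 0, 34.0, 13.0 and 32.4 CPM, and the one of 8535 nt at 0, 39.4, 35.9 and 17.1 CPM. In lateral ectoderm all 3 had reads in every library, at 34.3, 33.9, 23.6 and 43.0 CPM for 1950 nt, 54.96, 51.2, 51.7 and 51.1 CPM for 3793 nt and 53.8, 59.4, 56.7 and 45.9 CPM for 8535 nt. All 3 had fractional read estimates, which arise where Salmon divides reads between similar transcripts. Whether the animal zeros come from that division was not tested.

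Read estimates were whole numbers in all 8 libraries for 37 of the 88 members, or 42.0%, against 32.6% of the 6496 transcripts. All 4 on/off members, 2 of the 4 near-off and 31 of the 80 graded members had whole numbers. Among members of at least 4-fold they were 22 of 40, and among the weaker ones 15 of 48. Annotated length had a median of 2342 nt over the members and 2002 nt over the 6496 transcripts, with members from 187 to 8821 nt. On the authors' TPM, 85 of the 88 were separated and at least 2-fold higher in lateral ectoderm. The same rule on TPM, with its limit of 10, gave 60 transcripts, of which 48 were members, or 54.5% of the 88, and 12 were not. Of the members 37 had a lateral mean under 10 TPM.

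With edgeR (quasi-likelihood F test, p-values adjusted by Benjamini and Hochberg), 0.206% of 9694 tested transcripts passed an adjusted p of 0.05 as higher in lateral ectoderm. All 88 members passed the filter on low counts and 20 of them passed the test, which were all the calls in that direction. Since the same contrast chose the members, this count supports nothing about them. The calls comprised all 4 on/off, 2 of the 4 near-off and 14 of the 80 graded members. They comprised 10 of the 12 members at 16-fold or more, 4 of 9 from 8-fold to under 16-fold, 5 of 19 from 4-fold to under 8-fold, 1 of 14 from 3-fold to under 4-fold and 0 of 34 below. None of the calls had a lowest lateral value under 1.99 times its highest animal value. The largest fold that did not pass was 38.7, of the near-off member of 3084 nt. With DESeq2, 50 members passed, where 0.474% of 12459 transcripts did, and with limma voom 9, where 0.0928% of 9694 did. With no filter on low counts 55 passed, where 0.574% of 30850 did, with the replicate number as a block 8, where 0.0825% did, and without lateral replicates 1 and 4 together 8, where 0.0787% of 11437 did.

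The same rule in the other direction gave 47 transcripts more abundant in animal ectoderm. Their median fold was 3.18, 8 of the 47 were at 8-fold or more and 1 was on/off, against 3.62, 21 of 88 and 4 of 88 in the lateral set. Lateral libraries were on average shallower, so the on/off limit of 3 reads stands for a higher CPM in the animal set than in the lateral set. The share of the 47 among transcripts with an animal mean of at least 10 CPM is not given here. These differences were not tested.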

How the data were processed

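RNA from 5000 sorted cells per library was sequenced in 8 libraries, 4 per region, as SMART-Seq v3 libraries with paired reads of 150 bases, per the labels' protocols. FastQC, Trimmomatic, Salmon and DESeq2 and the build GRCz11 are named in the submitters' processing notes. The versions and options were not among the sources used. Per the file headers, each library's deposited file holds estimated counts for every transcript, without normalisation, and the authors' TPM, per effective length of each library.

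CPM were computed as estimated counts over the file sum. Estimated counts were rounded for edgeR 4.0.16 (filterByExpr with minimum count 10 and total 15, TMM, region as the only term), DESeq2 1.42.0 and limma 3.58.1 in R 4.3.3, with p-values adjusted over all tested transcripts. edgeR and the rule were run on simulated counts with planted changes. For the rule these had a single size, larger than the folds of most members, so weaker members were not covered. Members, classes and lists were chosen with earlier results of these data known. The plan named the on/off and the graded member with the highest lateral mean by identifier, and others by length. The gene lists were not read, because identifiers had no symbols, and sums per gene were not made. Nothing in the labels says that replicates came from separate clutches, so the p-values refer to the spread among these samples, which may be technical. Equal replicate numbers were not treated as pairs in the main fit, and the labels do not say whether they mark pairs. Intervals and floors cover counting error only.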

Additional observations from a re-analysis of the deposited data

Results flagged for a closer look

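A value was marked as far from its group by Dixon's criterion at 95%, which divides the gap to the nearest other library by the whole range of the 4. This held in 10 of 32 groups, which cover 14 members, the summed members and the total reads, where chance marks about 1 in 20 for continuous values. In 8 of the 10 the group was animal ectoderm. The rate of 1 in 20 does not apply where the other values are 0. The marked values in these 8 held from 1 to 13.8 estimated reads. These were 0.808 CPM in animal replicate 3 for the member of 2948 nt, 0.41 CPM in animal replicate 2 for those of 1274 and 1606 nt, and 0.539 CPM in animal replicate 3 for 2211 nt. The others were 2.15 CPM in animal replicate 3 for 1241 nt, 1.58 CPM in animal replicate 1 for 3084 nt, 3.62 CPM in animal replicate 1 for 954 nt and 4.51 CPM in animal replicate 2 for 1208 nt. In lateral ectoderm, the member of 2948 nt was low in replicate 2, at 30.2 CPM, and the member of 1274 nt was high in replicate 4, at 33.1 CPM.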

How the results depend on the processing

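The 88 members, 80 of them graded, became 139 and 124 at a lateral mean of at least 5 CPM, 57 and 50 at 20 CPM, 134 and 126 at 1.5-fold, 54 and 46 at 3-fold, and 37 and 31 with whole numbers only. The TPM rule gave 60 and 52. TMM gave 85 and RLE 88 members, sharing 85 and 87 with the 88. The 4 on/off members stayed 4, the same ones, under these settings. The class rests on animal reads, which these settings do not change. With lateral means from 23.4 CPM, folds from 174 and whole-number reads, the level, fold and whole-number settings could not remove these 4. Leaving out 1 library gave 103 to 134 members (134 without lateral replicate 2), 4 to 6 on/off and 96 to 126 graded, where 1 library fewer had to be separated. Of the 88 members, 77 were kept without lateral replicate 1, 78 without lateral replicate 4 and 82 to 88 without any other library. Without lateral replicates 1 and 4 together, added after seeing the data, the rule gave 155 members, 10 on/off and 140 graded. The 20 calls in edgeR, all members, became 59 with DESeq2 (50 members), 9 with limma voom (9 members), 177 with no filter on low counts (55 members) and 9 without lateral replicates 1 and 4 (8 members), and 20 with RLE. Leaving out 1 library gave 14 to 18 calls, with 14 to 18 members. The number of transcripts tested can change with the filter in those fits, and their shares are not given here. With the replicate number as a block they were 8, all members. Deviations from the group means correlated from -0.0385 to 0.0207 between animal and lateral libraries of equal number. Between those of unequal number they correlated from -0.142 to 0.159. The labels do not say that numbers mark pairs. With 4 libraries per group these values cannot show whether the libraries were paired. The lateral means of both named identifiers moved by less than their SD. The held-out pairs and the folds over 2 lateral libraries were also added after seeing the data. Causes of these changes were not tested beyond what the settings themselves fix. Sums per gene were not run.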
